A study of Homo sapiens with 6 samples.

Results

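CRYM, THRA, THRB, DIO2, KLF9 and NCOR1 are genes that take part in the binding of thyroid hormone, its activation or the response to it. They were examined in ARPE-19 cells, an established line derived from human retinal pigment epithelium. Every probe set that the platform annotation assigns to exactly 1 of these symbols was taken, which gave 25 of the 49293 non-control probe sets on the array. Of the 6 genes, 5 had such a probe set, out of 18132 genes with one. CRYM had 1, THRA 8, THRB 7, DIO2 5 and KLF9 4. In the annotation used here no probe set was assigned to NCOR1, alone or together with another gene, and 2473 probe sets are not listed in it. NCOR1 is not analysed here. The genes were selected on the measured difference between the plasmids: CRYM was taken up because it had the highest gene-level difference of the series, and the others were joined to it by known function with results of the same arrays in view. Differences of the members between plasmids are therefore given as a description. Whether a member passed the threshold used for all probe sets is stated in the same sense, and no p-value is printed for a member.

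The cells were grown in DMEM with 10% FBS and penicillin and streptomycin. In 6-well plates they received 2.5 µg per well of a GFP plasmid, the control, or of a GFP plasmid that also carries satellite alpha (SATalpha), the repeat DNA of centromeres. Both groups thus went through transfection and received GFP, and no untransfected group was among the samples. Each plasmid was given in triplicate, and total RNA of each sample was read on 1 Affymetrix 3′ expression array, so there are 3 arrays per group. The labels do not say whether the samples of a group came from separate cultures, and neither the time after transfection nor the share of transfected cells is stated there. The spread between arrays may thus be technical. Arrays of the same group correlated at 0.996 to 0.997 over probe sets, and arrays of different groups at 0.995 to 0.996. The difference between the 3′ and 5′ GAPDH controls, a sign of RNA integrity, was 0.34 to 0.43 with GFP and 0.35 to 0.47 with SATalpha. Of 11 markers of retinal pigment epithelium, 5 lay above the floor of the gene-level test, a mean log2 value of 5.19: TYR, PMEL, MITF, OTX2 and SERPINF1. RPE65, the visual cycle isomerase of that epithelium, was below it at 3.41.

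Thyroid hormone leaves the thyroid mostly as thyroxine, a prohormone. Cells take it up through membrane transporters, and deiodinases, which are selenoenzymes, turn it into the active triiodothyronine or break it down. Triiodothyronine binds the nuclear receptors THRA and THRB, which sit on DNA with a retinoid X receptor (RXR), hold corepressors such as NCOR1 when unliganded and exchange them for coactivators when hormone binds. CRYM, mu-crystallin, is a cytosolic protein that holds triiodothyronine in the cell in the presence of NADPH and also acts as a ketimine reductase. DIO2 is the activating deiodinase of many tissues, among them brain and pituitary. KLF9 is a Krüppel-like transcription factor whose gene responds directly to triiodothyronine and to glucocorticoids.

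Among the member genes with a RefSeq promoter entry, DIO2 had the most probe sets that differed between plasmids, so the DNA before its 2 annotated start sites is shown. Sequences are those of RefSeq on GRCh38.p14, which held windows for 5 of the 6 genes with 8 start sites in all. It has no entry for CRYM. Each line gives the 250 bases before a start site on the minus strand, 5′ to 3′, with motif matches in capitals.
DIO2 start 1, chr14:80211505-80211754: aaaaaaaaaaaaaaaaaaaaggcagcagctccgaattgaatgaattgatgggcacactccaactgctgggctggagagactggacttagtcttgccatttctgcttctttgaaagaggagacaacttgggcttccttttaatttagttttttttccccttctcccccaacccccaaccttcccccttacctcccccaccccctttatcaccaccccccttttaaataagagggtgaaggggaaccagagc
DIO2 start 2, chr14:80212179-80212428: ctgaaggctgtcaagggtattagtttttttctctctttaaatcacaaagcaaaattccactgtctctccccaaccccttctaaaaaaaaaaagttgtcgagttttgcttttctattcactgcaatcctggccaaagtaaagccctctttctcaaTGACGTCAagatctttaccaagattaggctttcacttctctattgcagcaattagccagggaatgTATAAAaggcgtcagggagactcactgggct

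The motifs searched, on both strands, were the cAMP response element TGACGTCA, the TATA box TATAAA, the receptor core motif AGGTCA and its direct repeat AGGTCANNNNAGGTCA, which holds the core motif. The window of DIO2 start 2 held the cAMP response element, beginning 96 bases before the start, and the TATA box, beginning 31 bases before it. Start 1 held no match. Of 35116 promoter windows of the same length, 1.65% held the cAMP response element, 10.7% the TATA box, 12.1% the core motif and 0.0142% the direct repeat. Neither the core motif nor its repeat was found in the 8 windows of the member genes, which says only that these letters are not in those windows. A TATA box match was also present at 1 of 2 THRB starts, farther off, beginning 182 bases before it. At 1 of 2 NCOR1 starts, matches lay 245, 227 and 180 bases before it, those at 245 and 227 on the opposite strand.

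CRYM and 4 of 5 DIO2 probe sets were higher with SATalpha, by 0.56 to 1.14, and the probe sets of the receptors differed by -0.33 to 0.26. Values below are log2 expression values as deposited, and a difference is SATalpha minus GFP on that scale with limma's moderated standard error (SE). A probe set is called where the Benjamini-Hochberg adjusted p of limma's fit over all 49293 probe sets is under 0.05. Of the 25 member probe sets 6 were called, all higher: 1 of CRYM, 4 of DIO2 and 1 of KLF9. Over all probe sets 8.36% were called in either direction and 4.18% were called higher. The SATalpha arrays all lay above the GFP arrays for 9 members and all below for 2, against 12.6% and 13.4% of all probe sets. Since the members were chosen with this contrast known, nothing is read from these counts. The median member difference was 0.11, where that of all probe sets was -0.00029.

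**Figure D1:**
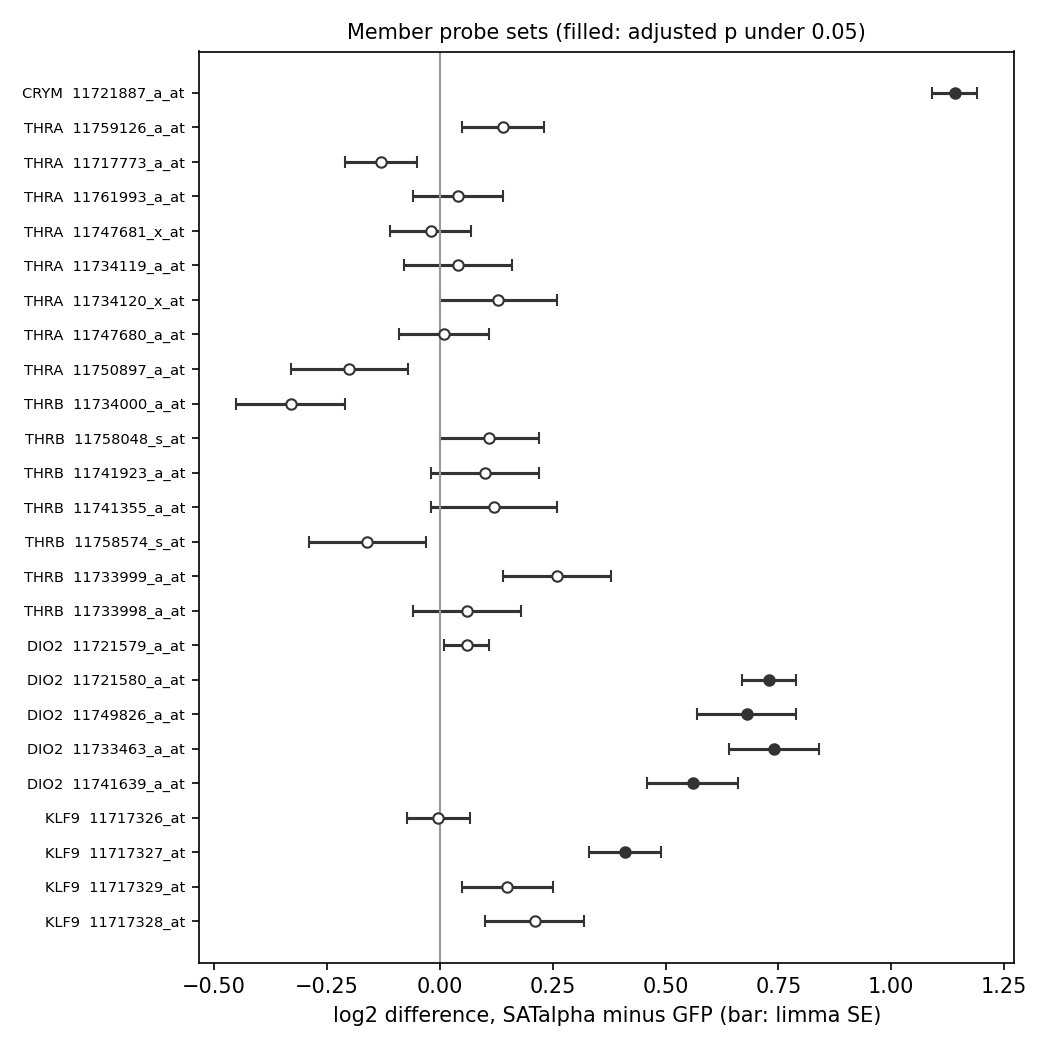
The log2 difference between SATalpha and GFP arrays (horizontal axis) is plotted for each of the 25 member probe sets, with bars of 1 limma SE and filled points for adjusted p under 0.05. CRYM lies farthest right at 1.14, 4 DIO2 probe sets lie between 0.56 and 0.74, and THRA and THRB probe sets scatter between -0.33 and 0.26.

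The CRYM probe set (11721887_a_at) read 8.56, 8.46 and 8.44 on the GFP arrays and 9.63, 9.60 and 9.64 on the SATalpha arrays. The groups stood 1.04 apart at their nearest values, and the SATalpha arrays lay within a narrower range than the GFP arrays. The difference was 1.14 (SE 0.05), a 2.20-fold higher signal, from a mean of 8.49 ± 0.06 to 9.62 ± 0.02 (SD, n = 3). At the gene level, with 1 probe set per gene, this was the highest difference of 10879 genes. Over single probe sets it ranked 4. The probe sets above it were 1 with no listed gene (2.50), 1 of SLF2 (1.36) and 1 of ZFP36L1 (1.20). With a single CRYM probe set there is no other one to set beside it. In RNA from a whole well, more transcript per cell and more cells that carry it cannot be told apart, here and for every gene below.

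By the root mean square distance of array values from those of CRYM, each gene first centred on its own mean over the 6 arrays, the 5 nearest of the tested genes were FEM1B (0.08), EPM2AIP1 (0.10), EID3 (0.13), TLR3 (0.14) and HNRNPA3 (0.15). The median distance over tested genes was 0.59. All 5 were higher with SATalpha on every array, by 0.86 in TLR3 to 1.03 in FEM1B. The choice by nearness to CRYM fixes this direction and much of the size, so nothing is read from it. FEM1B, which picks substrates for a ubiquitin ligase, read 6.73, 6.81 and 6.71 with GFP and 7.80, 7.69 and 7.84 with SATalpha. Of the DIO2 probe sets, 11721580_a_at lay nearest to CRYM at 0.21, and the others lay at 0.24 to 0.54.

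DIO2 was higher with SATalpha in 4 of its 5 probe sets, by 1.48- to 1.67-fold, and the remaining one differed by little. Probe set 11721580_a_at read 7.82, 7.85 and 7.70 with GFP and 8.58, 8.43 and 8.55 with SATalpha, a difference of 0.73 (SE 0.06). Probe set 11733463_a_at read 6.26, 6.40 and 6.03 with GFP and 7.06, 6.79 and 7.05 with SATalpha, a difference of 0.74 (SE 0.10). Probe set 11749826_a_at read 6.46, 6.58 and 6.10 with GFP and 7.19, 6.93 and 7.07 with SATalpha, a difference of 0.68 (SE 0.11). In these 3 probe sets every SATalpha array was above every GFP array, by at least 0.35 at the nearest values. Probe set 11741639_a_at read 6.08, 6.32 and 5.97 with GFP and 6.80, 6.48 and 6.79 with SATalpha, a difference of 0.56 (SE 0.10) with a gap of 0.16 between the groups.

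The DIO2 probe set with the highest mean, 11721579_a_at, behaved otherwise. It read 8.43, 8.44 and 8.42 with GFP and 8.46, 8.50 and 8.50 with SATalpha, a difference of 0.06 (SE 0.05) that was not called. The groups did not overlap, but their nearest values were only 0.02 apart. A gene-level test on the brightest probe set therefore gave DIO2 a difference of 0.06, and the mean of its 5 probe sets gave 0.55. All 5 are of the kind that can match several transcripts of the same gene, and where each lies on the DIO2 transcripts is not analysed here. In all 5 the lowest GFP array was replicate 3 and the highest was replicate 2. In the 4 that were higher with SATalpha, replicate 2 was the lowest SATalpha array. These probe sets read the same RNA samples and may share target sequence, so they are not separate measurements of the gene.

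**Figure D2:**
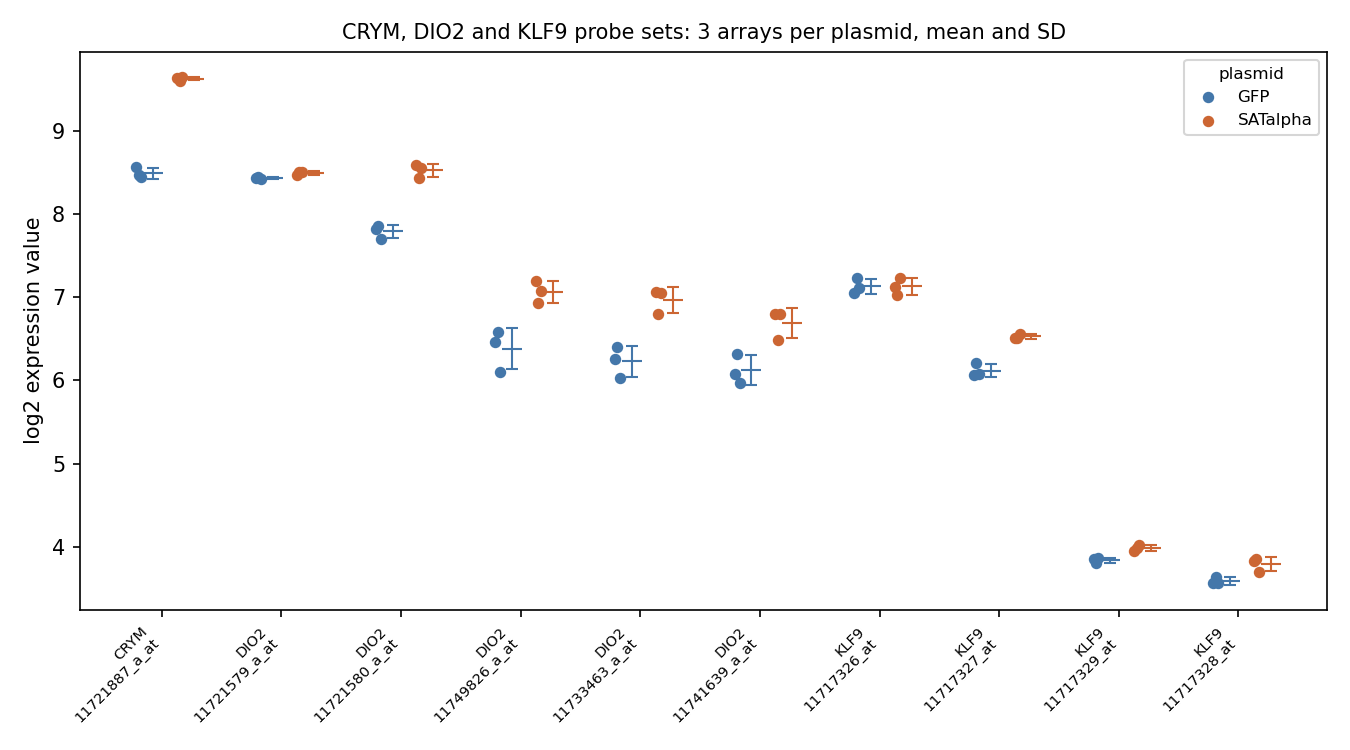
Log2 expression values (vertical axis) of the CRYM, DIO2 and KLF9 probe sets are shown for the 3 GFP and 3 SATalpha arrays, as points beside the mean and SD. The groups are apart in CRYM and in 4 DIO2 probe sets, lie 0.02 apart in the remaining DIO2 probe set and overlap in the KLF9 probe set with the highest mean.

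None of the 15 receptor probe sets was called, which does not show that the receptors were alike in both groups. THRA, the receptor form that prevails in heart, bone and brain, had differences from -0.20 to 0.14 over 8 probe sets with a median of 0.03. Its probe set with the highest mean, 11759126_a_at, read 6.62, 6.96 and 6.71 with GFP and 6.77, 7.04 and 6.88 with SATalpha, and the groups overlapped (0.14, SE 0.09). Probe set 11717773_a_at read 6.05, 6.03 and 6.07 with GFP and 5.90, 5.93 and 5.95 with SATalpha (-0.13, SE 0.08). It was the only THRA probe set whose groups did not overlap. The other 6 overlapped, with differences from -0.20 to 0.13. A further probe set is assigned to both THRA and NR1D1, the clock repressor whose gene overlaps THRA on the opposite strand, and is no member. It read 7.10, 7.09 and 7.09 with GFP and 6.66, 6.78 and 6.95 with SATalpha, a difference of -0.30 (SE 0.08) that was called, and which gene it reports cannot be told from the table.

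THRB, the receptor of liver, pituitary and the cone system of the retina, had 7 probe sets with differences from -0.33 to 0.26. The highest by mean, 11734000_a_at, read 5.48, 5.35 and 5.25 with GFP and 5.18, 5.11 and 4.78 with SATalpha. The SATalpha arrays were below the GFP arrays, by 0.07 at the nearest values, and the difference of -0.33 (SE 0.12) was not called. The spread among SATalpha arrays (SD 0.21) came mostly from replicate 3, and without that array the difference was -0.21. At the gene level, where this probe set stands for THRB, it was called in 2 of 15 settings, without SATalpha replicate 1 (-0.41) and without probe sets that can match several genes (-0.33). The other 6 THRB probe sets overlapped between groups. Their GFP means ran from 2.33 to 4.04, below the median of all probe sets. In 5 of these 6 the difference was positive, from 0.06 to 0.26, and in the other it was -0.16. No detection call was used here, so signal in these probe sets could not be told from background.

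**Figure D3:**
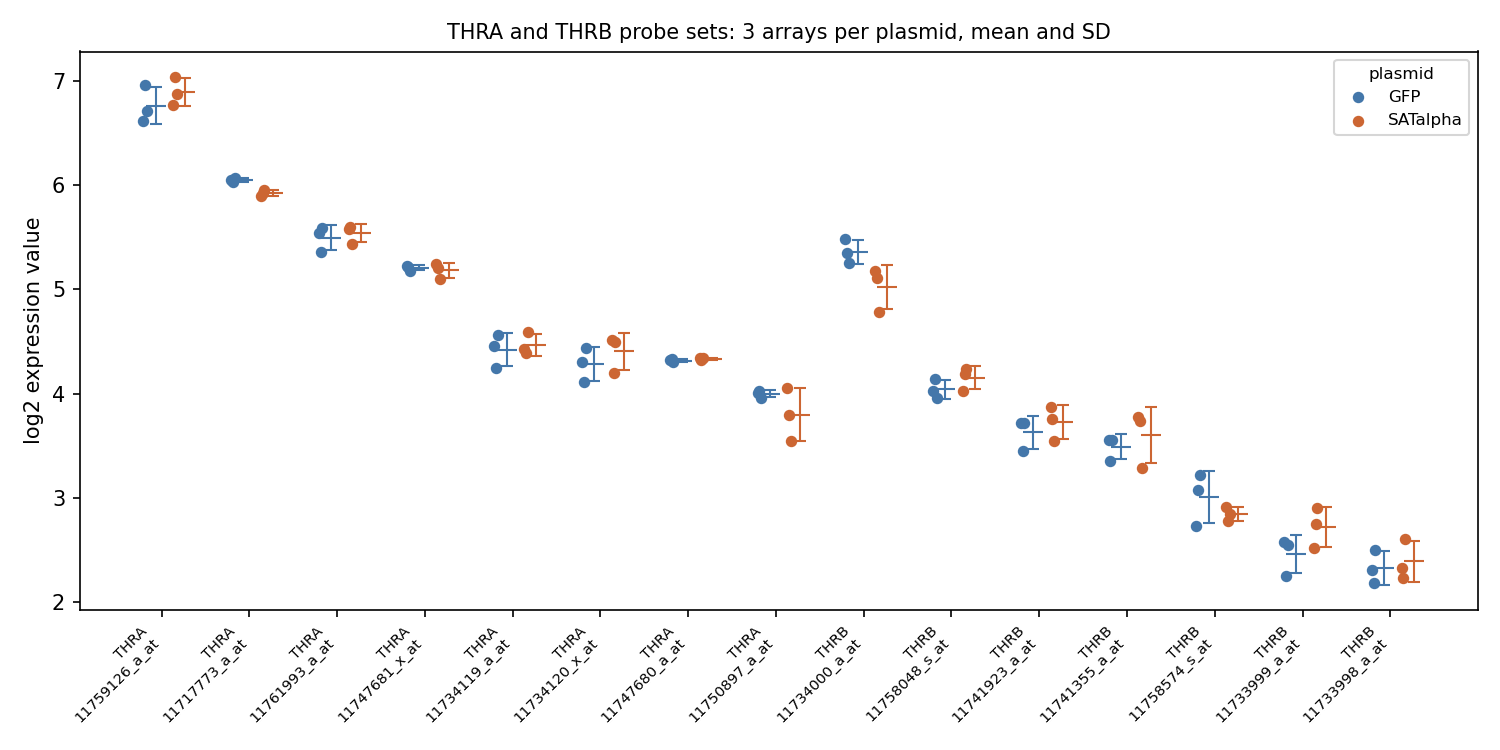
Log2 expression values (vertical axis) of the 8 THRA and 7 THRB probe sets are shown for the 3 GFP and 3 SATalpha arrays, as points beside the mean and SD. The groups overlap in all but 11717773_a_at of THRA and 11734000_a_at of THRB, where SATalpha arrays are lower.

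KLF9, the hormone-responsive transcription factor, gave a mixed reading. Probe set 11717327_at read 6.06, 6.21 and 6.08 with GFP and 6.51, 6.51 and 6.56 with SATalpha, a difference of 0.41 (SE 0.08), 1.33-fold higher, with 0.30 between the groups. Probe set 11717326_at, the one with the highest mean, read 7.05, 7.23 and 7.11 with GFP and 7.12, 7.03 and 7.23 with SATalpha. Its groups overlapped and its difference was -0.003 (SE 0.07). The dim probe sets 11717328_at (0.21, SE 0.11) and 11717329_at (0.15, SE 0.10) had GFP means of 3.59 and 3.83. In both, all SATalpha arrays lay above all GFP arrays, and neither was called. The gene-level test thus gave KLF9 a difference of -0.003, and the mean of its 4 probe sets gave 0.19.

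The other genes of hormone handling were taken from 11 lists with 93 genes, of which 87 had a probe set assigned to 1 gene and 58 lay above the floor and were tested. These tests used 1 probe set per gene, the one with the highest mean. Calls given for a gene's other probe sets are those of the fit over all probe sets. Of the 58, 3 rose and 7 fell. Over all 10879 tested genes 20.8% were called, 7.72% higher and 13.0% lower. The median difference was -0.04 in the lists and -0.02 over all tested genes.

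Of 4 tested membrane transporters, limma called 0, also at an unadjusted p under 0.05, and their differences ran from -0.03 to 0.06. SLC3A2, the heavy chain that pairs with the amino acid carriers SLC7A5 and SLC7A8, read 10.86, 10.84 and 10.87 with GFP and 10.85, 10.79 and 10.91 with SATalpha (-0.01, SE 0.04, limma adjusted p = 0.917). SLCO4A1, an organic anion transporter, differed by -0.02 (SE 0.06, limma adjusted p = 0.806). DIO1 and DIO3, the other deiodinases, were below the floor with GFP means of 3.11 and 3.86 and were not tested. In the selenoprotein synthesis list 1 of 5 tested genes was called. SEPSECS, which makes the selenocysteine carried by its transfer RNA, read 5.66, 5.82 and 5.54 with GFP and 5.39, 5.31 and 5.44 with SATalpha and fell by 0.29 (SE 0.09, limma adjusted p = 0.0416). Its 2 other probe sets differed by -0.25 and -0.19. Neither these nor the probe set tested was called in the fit over all probe sets. SEPSECS was called in 9 of 17 settings: among others, it was not called when GFP replicate 1 (-0.30) or 2 (-0.22) or SATalpha replicate 1 (-0.30) or 2 (-0.26) was left out, with no filter, or without probe sets that can match several genes (-0.19). Of the carrier proteins and the integrin that binds thyroid hormone at the cell surface, ITGAV alone lay above the floor and differed by -0.11 (SE 0.05, limma adjusted p = 0.149). Another ITGAV probe set differed by 0.27 and was called, so its direction is uncertain.

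Of 3 tested receptor partners, limma called 0, also at an unadjusted p under 0.05, and all 3 differences were between -0.11 and -0.01. RXRB, a partner of both receptors, averaged 8.08 ± 0.05 with GFP and 7.97 ± 0.07 with SATalpha (SD, n = 3, difference -0.11, SE 0.06, limma adjusted p = 0.182), and its other probe sets ran from -0.13 to 0.28. NR2F1, an orphan receptor that can occupy the same DNA motifs, differed by -0.06 (SE 0.07, limma adjusted p = 0.635). In the corepressor complex 1 of 6 tested genes fell and 0 rose. GPS2, a subunit of that complex, read 7.52, 7.61 and 7.56 with GFP and 7.38, 7.31 and 7.32 with SATalpha and fell by 0.23 (SE 0.06, limma adjusted p = 0.0127). The call was lost without GFP replicate 2 (-0.20).

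Among 5 tested coactivators 1 fell and 1 rose. PPARGC1A, which drives mitochondrial genes, read 5.41, 5.83 and 5.55 with GFP and 5.23, 4.88 and 5.26 with SATalpha and fell by 0.48 (SE 0.13, limma adjusted p = 0.0158). Differences of its other probe sets ran from -0.38 to -0.04, with no call, and leaving out GFP replicate 2 or SATalpha replicate 2 ended its own (-0.36 in both). MED1, the Mediator subunit that receptors contact, read 7.81, 7.94 and 7.83 with GFP and 8.06, 8.01 and 8.13 with SATalpha and rose by 0.21 (SE 0.06, limma adjusted p = 0.0203). The other MED1 probe sets differed by 0.07 and 0.18 without a call, and leaving out GFP replicate 1 (0.18) or 3 (0.20) or SATalpha replicate 1 (0.21) ended this one.

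Of 7 tested genes known as targets of thyroid hormone, 2 fell and 0 rose, with a median of -0.06. HR, a corepressor named for the hairless mouse and induced by the hormone in brain, read 5.89, 5.87 and 5.87 with GFP and 5.48, 5.68 and 5.38 with SATalpha and fell by 0.37 (SE 0.09, limma adjusted p = 0.0118). Its other probe set differed by -0.02, and the call was lost without GFP replicate 1 (-0.36). ANGPTL4, an inhibitor of lipoprotein lipase, fell by 0.17 (SE 0.06, limma adjusted p = 0.0492) and was called in 7 of 18 settings. Among others, it was not called when GFP replicate 1 or 3 (-0.14 in both) or SATalpha replicate 1 (-0.15) or 2 (-0.17) was left out. Nor was it called with quantile normalization (-0.16) or with no filter (-0.17). Its only probe set was not called in the fit over all probe sets. CPT1A, BCL3, ME1 and ATP2A2 were chosen after their values were seen. CPT1A, which carries fatty acids into mitochondria, differed by 0.16 (limma adjusted p = 0.0633) while its other probe set differed by 0.51 and was called. BCL3 differed by -0.27 (limma adjusted p = 0.0532), and its 3 other probe sets ran from 0.05 to 0.32, none called. ME1 differed by 0.12 (limma adjusted p = 0.389) while its other probe set differed by 0.22 and was called. ATP2A2 differed by 0.04 (limma adjusted p = 0.53), and 1 of its 5 other probe sets was called lower. None of these genes passed the threshold in the gene-level test. THRSP, a lipogenic target, was below the floor at 3.83 with GFP.

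**Figure D4:**
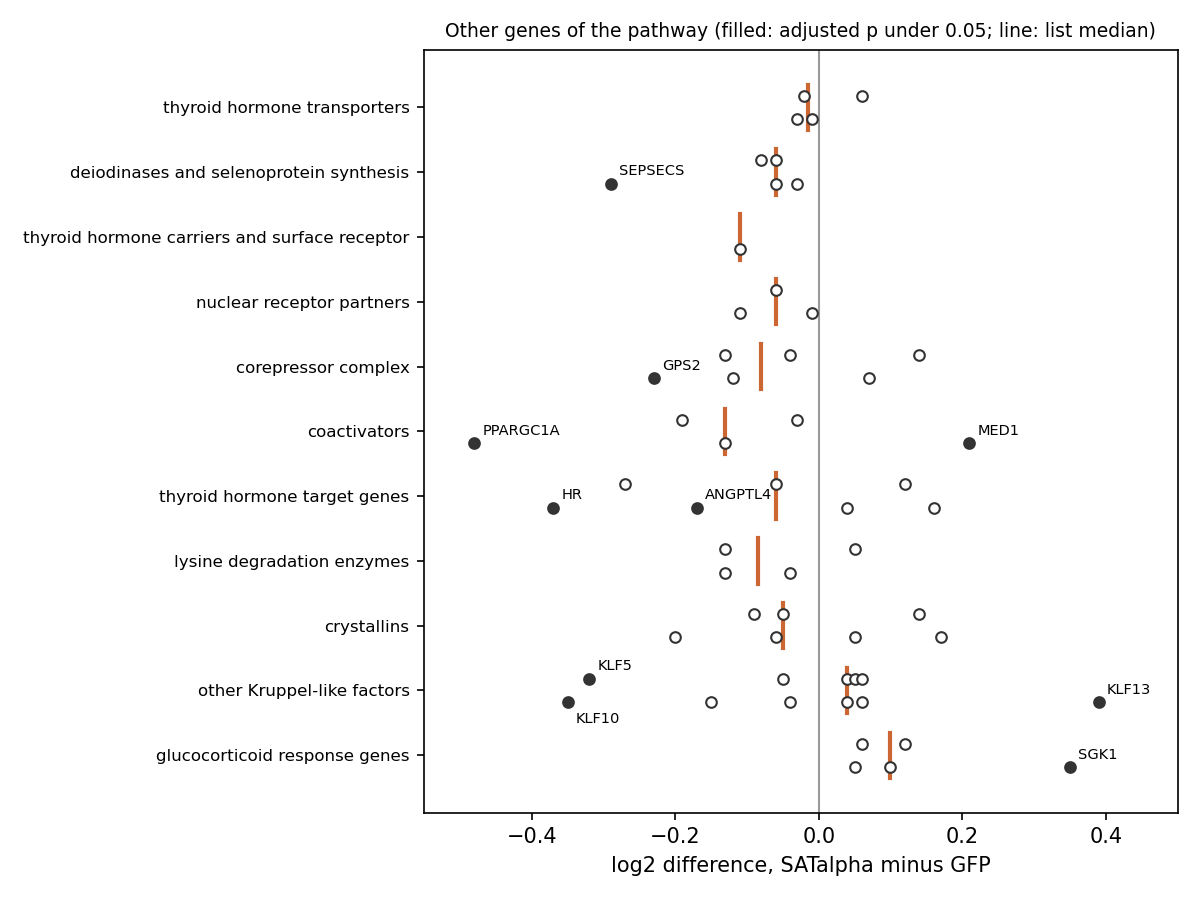
Each point is 1 tested gene of the 11 lists placed by its log2 difference between SATalpha and GFP arrays (horizontal axis), with filled, labelled points for adjusted p under 0.05 and a line at each list's median. The 7 called genes on the left run from PPARGC1A at -0.48 to ANGPTL4 at -0.17, and the 3 on the right are MED1, SGK1 and KLF13.

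Genes related to CRYM by name or by enzyme activity showed no call. Of 7 tested crystallins, most of which are lens proteins unrelated to CRYM in sequence, limma called 0, and 2 had an unadjusted p under 0.05. CRYAB, the small heat shock protein, read 10.84, 10.87 and 10.82 with GFP and 10.75, 10.86 and 10.76 with SATalpha (-0.05, SE 0.04, limma adjusted p = 0.378). CRYZ, a quinone oxidoreductase, differed by 0.14 (SE 0.05, limma adjusted p = 0.053) and was called in 5 of 17 settings. Of 4 tested enzymes of lysine degradation, the pathway that yields ketimine substrates of CRYM, limma called 0, also at an unadjusted p under 0.05, with differences from -0.13 to 0.05. ALDH7A1 differed by -0.04 (SE 0.05, limma adjusted p = 0.657) and DHTKD1 by 0.05 (SE 0.07, limma adjusted p = 0.695).

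The other Krüppel-like factors moved both ways, with 1 higher and 2 lower of 11 tested. KLF10, a target of TGF-beta, read 10.39, 10.48 and 10.48 with GFP and 10.17, 10.21 and 9.94 with SATalpha and fell by 0.35 (SE 0.06, limma adjusted p = 0.00118), and its other probe set was called in the same direction. KLF5 read 7.40, 7.55 and 7.16 with GFP and 7.20, 7.04 and 6.93 with SATalpha and fell by 0.32 (SE 0.09, limma adjusted p = 0.0286). Its groups overlapped, and it was not called when GFP replicate 1 (-0.30) or 2 (-0.23) or SATalpha replicate 2 (-0.31) or 3 (-0.25) was left out. The other KLF5 probe sets differed by -0.35 without a call and by -0.31 with one. The probe set tested was not called in that fit over all probe sets. KLF13, the closest relative of KLF9, rose by 0.39 (SE 0.10, limma adjusted p = 0.0139), from 5.43, 5.33 and 5.66 to 5.77, 5.98 and 5.84. Its other probe set differed by -0.27, so its direction is uncertain. The call was lost without GFP replicate 1 (0.37) or 2 (0.32). Given after their values were seen, KLF7 (0.04) and KLF11 (0.06) were not called, but each had 1 other probe set called higher. Their other probe sets ran from 0.15 to 0.34 and from 0.04 to 0.40. KLF15, below the floor and not tested, averaged 5.35 with GFP and 4.76 with SATalpha, and its groups did not overlap.

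KLF9 also answers to glucocorticoids, and 1 of 5 tested genes of that response was called in the gene-level test. Below the floor, PER1 averaged 4.86 with GFP and 3.97 with SATalpha, with its other probe sets at -0.22 and 0.02. ZBTB16, also below it, averaged 3.78 and 3.77. SGK1, a kinase induced by glucocorticoids and by cell stress, read 9.84, 9.79 and 9.85 with GFP and 10.18, 10.15 and 10.21 with SATalpha and rose by 0.35 (SE 0.04, limma adjusted p = 3.58e-05). Its 3 other probe sets rose by 0.30 to 0.38, all called. Of the 10 called list genes, SGK1 alone passed in all 18 settings it was fitted in. The 4 tested genes that were not called are given outside the naming rule. FKBP5 and TSC22D3, which glucocorticoids induce in most cells, differed by 0.06 and 0.10 (limma adjusted p = 0.681 and 0.269). The 5 other FKBP5 probe sets ran from 0.03 to 0.36, none called. DUSP1 differed by 0.12 (limma adjusted p = 0.078), and 2 of its 3 other probe sets were called higher. NR3C1 differed by 0.05 (limma adjusted p = 0.616), and 4 of its 9 other probe sets were called lower.

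Markers of other cell types were set beside these results. Of 7 thyroid follicle markers, 6 had a probe set and PAX8 alone lay above the floor. The summed linear signal of that list was 122 to 129 with GFP and 117 to 128 with SATalpha. Of 7 skeletal muscle markers 3 were above the floor, and limma called 0 of them, with 1 at an unadjusted p under 0.05. The muscle sums were 271 to 288 with GFP and 259 to 271 with SATalpha. Of 8 photoreceptor and neuron markers, 7 had a probe set and 4 were above the floor, with sums of 351 to 367 with GFP and 294 to 329 with SATalpha. Of those 4, limma called 2. SYT1, a synaptic vesicle protein, fell by 0.75 (SE 0.09, limma adjusted p = 6.71e-05) and PDE6B, a rod phosphodiesterase, fell by 0.41 (SE 0.08, limma adjusted p = 0.00284). CRX differed by -0.13 (limma adjusted p = 0.44) and SNAP25 by 0.08 (limma adjusted p = 0.501), and neither was called. The retinal pigment epithelium list summed to 867 to 903 with GFP and 823 to 872 with SATalpha, and limma called 0 of 5 tested markers, also at an unadjusted p under 0.05. Lens markers, of which CRYBB1 alone lay above the floor, summed to 130 to 143 and 139 to 143, and fibroblast markers, with PDGFRB alone above it, to 130 to 138 and 124 to 136. The part of these levels in the CRYM and DIO2 differences was not tested.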

How the data were processed

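Total RNA of 6 ARPE-19 samples was labelled with a 3′ in vitro transcription kit and read on Affymetrix arrays, per the labels' protocols. The authors deposited log2 expression values per probe set. MAS5 and RMA are both named in the submitters' processing notes, and which of them made these values is not given in the sources used here. No scan date, probe position or detection call was used. Depth does not apply to arrays, and their number, 3 per group, limits the precision.

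Of 49372 probe sets, 79 controls were left out. The platform annotation gave 44988 probe sets 1 gene symbol and 1832 several, and 2473 were not listed. limma 3.58.1 in R 4.3.3 (lmFit, eBayes with a mean-variance trend) compared SATalpha with GFP on the deposited values over all 49293 probe sets, with Benjamini-Hochberg adjustment and a threshold of 0.05. A gene-level fit took the probe set with the highest mean for each of 18132 genes and left out the lowest 40%, under a mean of 5.19, which left 10879. Tables were made with Python 3.11.15 and pandas 2.3.3. The code was tested on simulated data.

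The member genes, the lists and the naming rule were chosen with earlier results of these data known. In each list up to 4 called genes with the smallest p were named, or the 2 with the highest mean where none was called. Alternatives were quantile normalization, median centring, a replicate block, no mean-variance trend, array weights, an unmoderated test, other filters, each gene's mean over its probe sets, exclusion of probe sets that can match several genes, and leaving out each array.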

Additional observations from a re-analysis of the deposited data

How the results depend on the processing

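With 3 arrays per group and values whose making is not fully known, counts of calls moved more than differences did. Against 4123 probe sets called, 1321 were called with no mean-variance trend, 323 by the unmoderated test and 1967 to 4325 when 1 array was left out. Against 2259 genes, 717 were called by the unmoderated test and 1216 to 2520 with 1 array left out. Of the 6 member probe sets called, the unmoderated test called 1, that of CRYM, and without the trend 5 were called. Against 10 list genes called of 58 tested, 16 were called with array weights, 2 by the unmoderated test and 4 to 11 with 1 array left out, and the genes called with array weights include some outside the 10, such as CREBBP, CRYZ, ME1 and RXRB. With each gene's mean over its probe sets, DIO2 moved from 0.06 to 0.55 and KLF9 from -0.003 to 0.19. No difference changed sign among the 6 member probe sets and 10 list genes called. Sign changes were not examined for SYT1, PDE6B, the probe set shared by THRA and NR1D1, or the other probe sets of list genes. Among differences not called, the sign turned in more genes than are given here. With each gene's mean over its probe sets it turned in CRYAB (0.09), ITGAV (0.01), RXRB (0.03), SLCO4A1 (0.03) and KLF9. With 1 array left out it turned in THRA probe sets 11761993_a_at (-0.03), 11734119_a_at (-0.04) and 11747681_x_at (0.02) and in THRB 11733998_a_at (-0.05). It also turned there in KLF9 11717326_at (up to 0.05), SLC3A2 (0.02) and SLCO4A1 (0.0025). List genes on both sides of 0 with 1 array left out include RXRA (-0.10 to 0.11), EP300 (-0.10 to 0.05), EEFSEC (-0.10 to 0.04), SLC7A5 (-0.10 to 0.03) and FKBP5 (-0.01 to 0.15). With quantile normalization the sign turned in KLF9 11717326_at (0.01). NR3C1 was called only without probe sets that can match several genes, and its lowest difference over all settings was -0.21. The cause of these shifts was not tested. The CRYM difference stayed between 1.11 and 1.17 and was called in all 15 settings.

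The replicate numbers were treated as names, since deviations of same-numbered arrays correlated at -0.003, -0.239 and -0.287. For arrays of different number in the 2 groups, correlations ran from -0.133 to 0.342, and no other pairing was tested. A replicate block gave 2328 probe sets, 1300 genes and 5 list genes, and called 6 member probe sets. The list genes not called with it were GPS2, PPARGC1A, MED1, SEPSECS and ANGPTL4.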
